A study of Homo sapiens with 2 samples.

Results

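The genes described here are 38 genes of glycolysis and of the transcriptional response to low oxygen, chosen by gene symbol from a gene table of 46732 entries. All 38 symbols were found in the table, and 36 of them had at least 100 estimated counts in at least 1 library. They were measured by RNA-seq in secondary mammospheres of T47D, a long-established human cell line from a breast cancer of the luminal type that carries the estrogen receptor. Mammospheres are clusters of cells grown in suspension, and these were grown for 7 days, passaged, and grown for 7 more days. One library came from control cells and 1 from cells labelled as CIC knockdown, so there were no replicates; how the knockdown was made is not stated in the labels. The series' design text mentions duplicates, but 1 sample per group is listed, and whether a column pools several cultures is not stated.

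Glycolysis splits glucose into pyruvate in the cytosol, and lactate dehydrogenase turns pyruvate into lactate when it is not burned in mitochondria. HIF-1, a pair of the oxygen-regulated subunit encoded by HIF1A and the constant partner ARNT, induces nearly every step of that route in low oxygen, together with genes for pH control, blood vessel growth and collagen hydroxylation. In normal oxygen the prolyl hydroxylases EGLN1 and EGLN3 mark HIF-1 alpha for destruction, so its activity is set mainly by protein stability and shows in its targets rather than in HIF1A mRNA. CIC is a repressor of ETV4, ETV5 and other genes downstream of the Ras and ERK pathway.

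The control library held 47099221 estimated counts and the library labelled CIC knockdown 68420805. CIC mRNA had 607 and 872 counts, a ratio of 0.98 (95% counting interval 0.882 to 1.09), and so was no lower under the knockdown label. ETV4 (81 and 557 counts) and ETV5 (174 and 1268 counts) were both above 4 times the control level. Each direction below is therefore between the labels. All 7 luminal markers were present, from GATA3 at 41.7 and 42.2 TPM to KRT18 at 3082 and 3141 TPM. Of 14 markers of leukocytes, endothelium, fibroblasts and basal cells, 6 had 0 counts in both libraries (PTPRC, CD3E, COL1A2, PDGFRB, KRT5 and KRT14). The 14 summed to 5.52 and 6.05 TPM, most of it from VIM. COL1A1 (58 and 168 counts) was the marker of at least 100 counts whose interval lay above 1, and its part in the results below was not tested.

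HIF-1 binds a short core, ACGTG or GCGTG, and the 250 bases before annotated start sites were searched for it on both strands in RefSeq promoters (build GRCh38.p14). Promoters were matched for 32 of the 38 genes, with 59 start sites in all, and none for SLC2A3, PFKFB2, SLC16A1, BNIP3L, NDRG1 or VEGFA. At least 1 start site with the core was found for 26 of the 32 genes, and for 47.4% of all genes with a promoter in the table. Counted by start site, 57.6% of the 59 held the core, and 43.2% of 35116 start sites overall. A match is a description of the letters and not a binding site. Start sites were not weighted by use, and the main start of some genes was not among the 59. For GAPDH the core stood before variant 2, which had 330 of the gene's 147768 control counts. The palindrome CACGTG, the E-box that MYC and its relatives read, contains the core on both strands and was found before 8 of the 59 start sites, or 13.6%, against 6.34% overall.

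Stretches are shown for genes that span the results: ANKRD37 and CA9 as known hypoxia targets, a pair of abundant glycolytic enzymes, and the lowest and highest ratio among the 36 members with at least 100 counts. Capitals mark the core, or CACGTG where both strands overlap. For CA9 only the 30 bases next to the start site are shown, with the core ending 14 bases before it.
ANKRD37 (chr4:185396591-185396840, plus strand): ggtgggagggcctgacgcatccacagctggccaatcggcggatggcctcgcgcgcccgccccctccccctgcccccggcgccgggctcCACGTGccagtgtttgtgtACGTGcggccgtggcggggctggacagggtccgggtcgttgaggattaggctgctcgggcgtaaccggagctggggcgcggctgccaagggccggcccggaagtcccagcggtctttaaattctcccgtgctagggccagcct
PGK1 (chrX:78103998-78104247, plus strand): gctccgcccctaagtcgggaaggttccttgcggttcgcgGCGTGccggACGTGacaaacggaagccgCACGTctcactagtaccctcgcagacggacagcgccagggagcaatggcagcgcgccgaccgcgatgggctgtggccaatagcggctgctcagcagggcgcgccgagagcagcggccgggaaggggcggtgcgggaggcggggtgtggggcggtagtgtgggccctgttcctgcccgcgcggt
ENO1 (chr1:8878687-8878936, minus strand): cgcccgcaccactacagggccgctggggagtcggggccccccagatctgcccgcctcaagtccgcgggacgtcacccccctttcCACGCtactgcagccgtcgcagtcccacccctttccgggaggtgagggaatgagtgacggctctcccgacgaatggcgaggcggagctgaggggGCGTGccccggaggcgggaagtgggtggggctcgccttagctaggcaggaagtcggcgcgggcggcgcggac
CA9 (chr9:35673898-35673927, plus strand): tcgtttccaatgCACGTacagcccgtacac
PFKFB3, before the start of transcript variant 1 (chr10:6202682-6202931, plus strand): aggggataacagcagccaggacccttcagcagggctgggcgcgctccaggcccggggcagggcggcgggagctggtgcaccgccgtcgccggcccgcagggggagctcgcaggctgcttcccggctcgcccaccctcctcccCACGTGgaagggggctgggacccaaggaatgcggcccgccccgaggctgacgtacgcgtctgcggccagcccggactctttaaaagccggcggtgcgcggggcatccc
SLC16A3, before the start of transcript variant 4 (chr17:82231982-82232231, plus strand): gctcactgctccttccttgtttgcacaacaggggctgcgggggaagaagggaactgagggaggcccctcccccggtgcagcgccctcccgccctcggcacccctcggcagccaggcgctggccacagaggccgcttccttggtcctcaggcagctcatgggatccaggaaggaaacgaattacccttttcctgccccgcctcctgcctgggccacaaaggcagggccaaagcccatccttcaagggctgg
The SLC16A3 window shown held no core, and that of PFKFB3 held it as CACGTG. The starts shown for SLC16A3 and PFKFB3 were the most counted for their gene in both libraries. Windows before other SLC16A3 starts did hold the core, with 3 matches before the start of variant 5. CIC itself binds octamers such as TGAATGAA and TGAATGGA. On either strand these were found before 1 of the 59 start sites, or 1.69%, and before 2.19% of start sites overall. That start belongs to GPI, the isomerase of the second glycolytic step, where 2 overlapping copies are set in capitals. In this stretch capitals mark those copies alone. The window also holds 1 HIF-1 core, ending 158 bases before the start and left in lower case. This start begins variants 5 (191 and 154 counts) and 6 (292 and 274 counts). The model X1, which begins further upstream, held 62.4% of GPI counts under control and 72.1% in the other.
GPI (chr19:34364742-34364991, plus strand): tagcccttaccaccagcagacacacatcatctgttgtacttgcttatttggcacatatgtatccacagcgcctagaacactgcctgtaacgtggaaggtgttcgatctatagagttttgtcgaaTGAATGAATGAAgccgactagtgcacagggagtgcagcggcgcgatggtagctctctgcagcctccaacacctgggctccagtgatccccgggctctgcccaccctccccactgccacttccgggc

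Across the 38 genes the difference between the libraries was small. Ratios below are those of normalised counts, labelled CIC knockdown to control, each with a 95% interval for counting error alone. No member reached a 2-fold difference in either direction by that interval, where 1.22% of all 13722 genes with at least 100 counts were at least 2-fold higher and 0.977% at least 2-fold lower. At a smaller limit, 1 of the 36 counted members was at least 25% higher (SLC16A3) and 1 at least 20% lower (PFKFB3), against 12.4% and 9.58% of all genes. Of the 8625 genes with at least 1000 counts, 8.17% and 5.66% passed that limit, and 0.545% and 0.406% the 2-fold limit. The median absolute log2 ratio was 0.077 for the 36 members, 0.155 for all genes and 0.127 for all genes with at least 1000 counts. Depth was not matched by that minimum: the median control count was 2172 for those genes and 7739 for the 33 members that passed it.

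**Figure D1:**
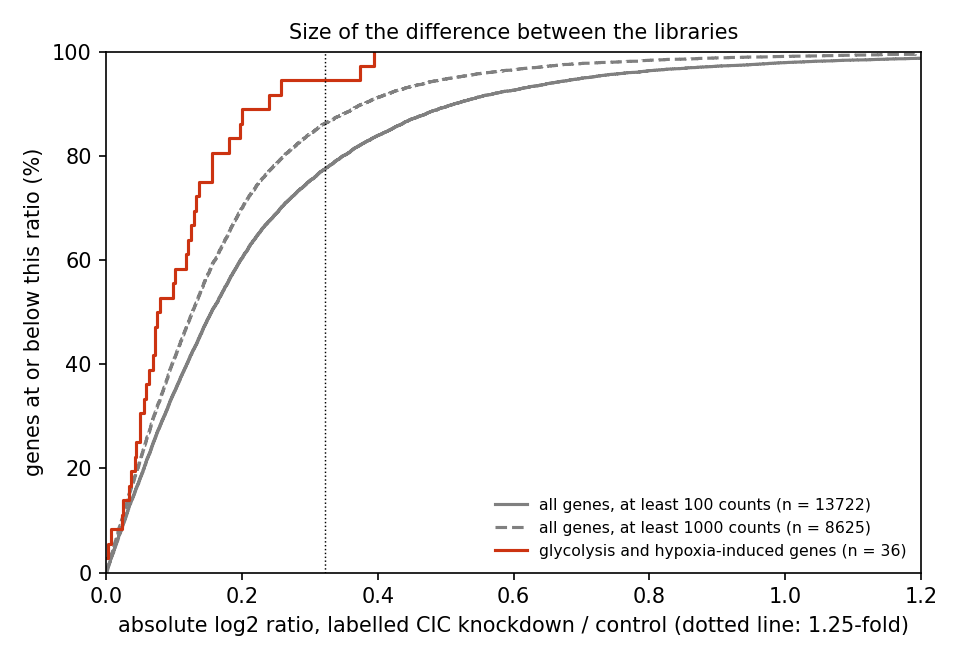
Cumulative share of genes (percent, vertical axis) by the absolute log2 ratio between the 2 libraries (horizontal axis), for the 36 counted members and for all genes at 2 count minimums. The curve of the members lies above both others at the dotted line (a ratio of 25% above 1), where it has reached 94.4%, against 77.5% and 86.2%.

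By the sign of the counting interval, 18 members were lower in the library labelled CIC knockdown, against 27.3% of all genes, 9 were higher, against 33.8%, and 9 overlapped a ratio of 1. With halved counts, which allow for both mates of a pair having been counted, 15 were lower: the intervals of PFKP, EGLN1 and EGLN3 then reached 1. Of genes with at least 1000 counts, as 33 members had, 29.5% were lower and 38.6% higher. The members were deeply counted, with a median of 6844 counts in the control library against 1107 for all genes, so their intervals are narrow enough to exclude 1 at differences of a few percent. The median log2 ratio was -0.05 for the members and 0.02 for all genes, and 27 of the 36 members lay within 1.1-fold of an equal level, against 45.2% of all genes and 53.4% of those with at least 1000 counts. In the plot of ratios, the 9 genes from aldolase to pyruvate kinase had 4 higher and 3 lower, and the 5 counted genes of the lactate branch 3 and 2. The 11 other hypoxia-induced genes had 1 higher and 6 lower, and the 6 genes from hexokinase to phosphofructokinase 1 and 4.

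**Figure D2:**
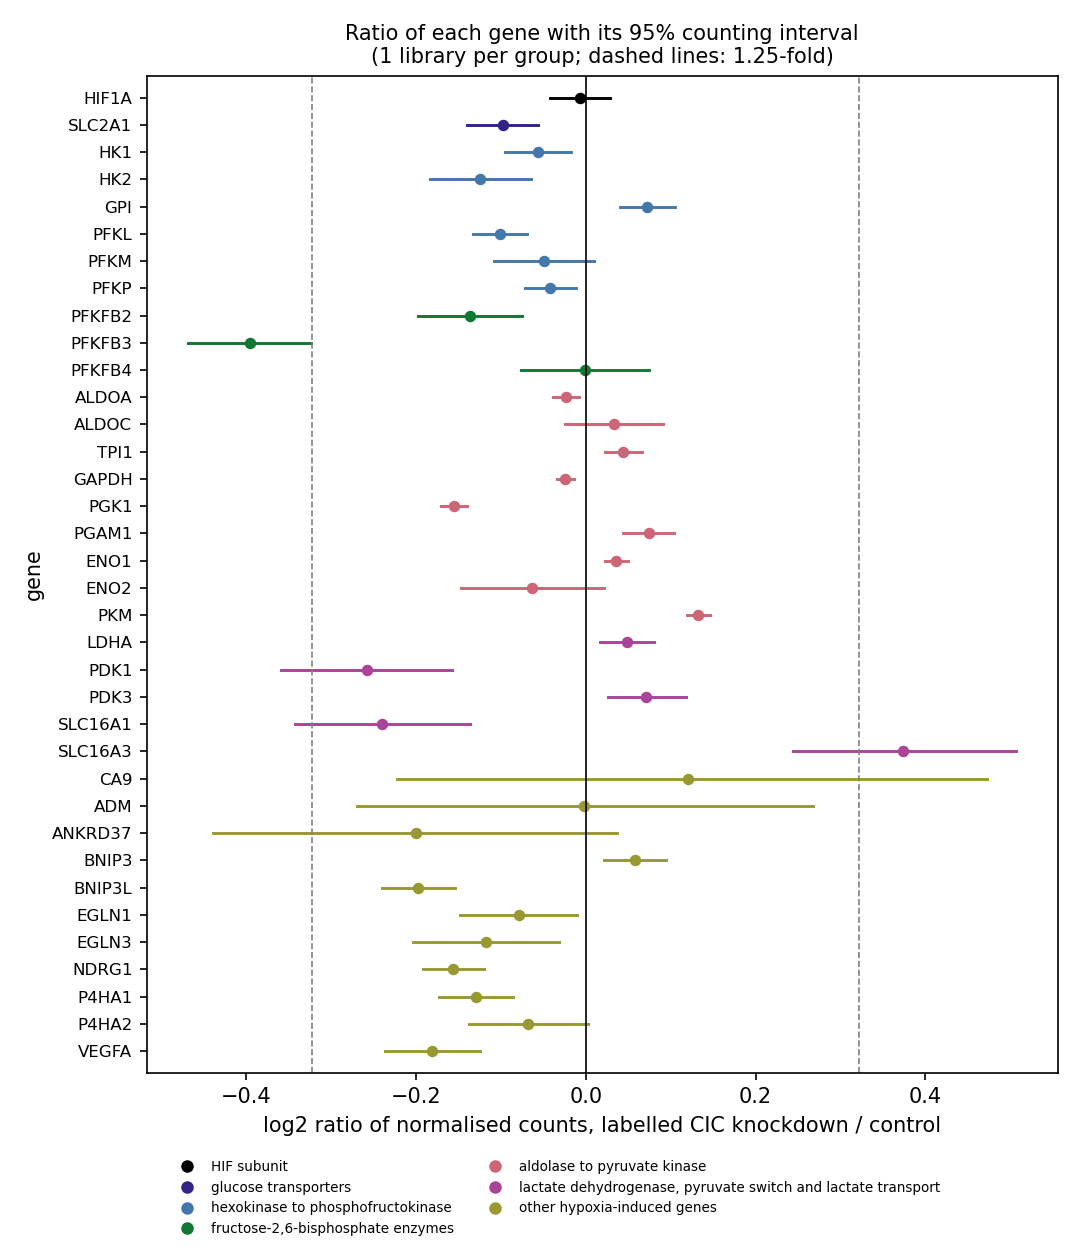
Log2 ratio of normalised counts (horizontal axis) for each of the 36 counted genes (vertical axis, coloured by role); points are single libraries compared and bars are 95% counting intervals. PFKFB3 at -0.395 and SLC16A3 at 0.374 are the points beyond the dashed lines.

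HIF1A (gene 3091, GRCh38 chromosome 14, 61695513 to 61748259) had 10939 counts under control and 15966 under the knockdown label. Its ratio was 0.995 (0.971–1.02), and its level was 59.9 and 61.1 TPM (the authors' length-corrected share of all transcripts). No difference in HIF1A mRNA was detectable at this depth.

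Among the glucose transporters, SLC2A1, the transporter GLUT1 (gene 6513, chromosome 1, 42925375 to 42958868), had 8081 and 11068 counts and levels of 51.9 and 49.7 TPM. Its ratio was 0.934 (0.908–0.961), slightly lower in the library labelled CIC knockdown. SLC2A3, the high-affinity transporter GLUT3, was scarce, with 63 and 69 counts, 0.351 and 0.271 TPM, and a ratio of 0.747 (0.523–1.07). SLC2A1 made up 99.3% and 99.5% of their summed TPM.

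Hexokinases trap glucose in the cell by phosphorylation. HK1, the widely expressed form, had 9160 and 12917 counts, 55.0 and 54.1 TPM, and a ratio of 0.962 (0.936–0.988). HK2, the inducible form (gene 3099, chromosome 2, 74832655 to 74893354), had 3990 and 5369 counts and a ratio of 0.918 (0.881–0.956). Its level was 15.0 and 11.7 TPM, a log2 difference of -0.35 against -0.12 in counts. Nearly all HK2 counts were assigned to a different transcript in each library. The model X1, 5685 bases long, took 93.9% of them under control and 5.4% in the other, and the curated transcript, 7093 bases long and starting upstream, took 6.12% and 90.9%. TPM divides by the length of the transcript chosen, and the gene's summed count does not. HK2 held 21.4% and 17.8% of the summed TPM of the pair.

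GPI had 12299 and 18961 counts and a ratio of 1.05 (1.03–1.08), but 43.2 and 42.9 TPM, so its direction differed between the units. Phosphofructokinase, which commits sugar to glycolysis, is a tetramer built from 3 genes. PFKP, the platelet type, was the most abundant at 125 and 125 TPM, with 15254 and 21729 counts and a ratio of 0.972 (0.952–0.992). PFKL, the liver type, had 13794 and 18857 counts, 101 and 95.2 TPM, and a ratio of 0.932 (0.912–0.953). PFKM, the muscle type, had 3951 and 5601 counts, 27.2 and 27.6 TPM, and overlapped 1 at 0.967 (0.928–1.01). Of their summed TPM, PFKP held 49.3% and 50.4%, PFKL 39.9% and 38.5%, and PFKM 10.7% and 11.2%, so the order was the same in both libraries.

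The bifunctional PFKFB enzymes make or remove fructose-2,6-bisphosphate, the strongest activator of phosphofructokinase, and they held the lowest of the 36 members with at least 100 counts. PFKFB3, the form with the highest kinase activity (gene 5209, chromosome 10, 6144918 to 6254648), had 2922 counts under control and 3257 under the knockdown label, at 15.1 and 11.8 TPM. The ratio was 0.76 (0.723–0.799). Its transcript variant 1, whose upstream sequence is shown above, had 2244 and 2159 counts and a ratio of 0.656 (0.618–0.696). Variant 2, which begins at the far upstream start, had 200 and 302 counts and a ratio of 1.03 (0.858–1.24), and variant 5, from the same start, had 0 and 144. Variants 4 (1 and 158 counts) and 8 (46 and 144 counts), which share the start of variant 1, were higher. From the same start, the models X6 (118 and 97 counts), X7 (105 and 89), X4 (60 and 20) and X2 (30 and 19) were lower by interval. The model X5 (66 and 108) and variant 6 (0 and 5), also from that start, overlapped 1. PFKFB2 had 3749 and 5002 counts, 12.0 and 11.4 TPM, and a ratio of 0.91 (0.872–0.95). PFKFB4, another hypoxia-induced form, had 2423 and 3550 counts, 14.7 and 15.1 TPM, and a ratio of 0.999 (0.949–1.05). In the control library PFKFB3 had the largest share of the family's TPM, 36.1% against 35.2% for PFKFB4, and in the other library the smaller share, 30.7% against 39.5%.

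The later steps, from aldolase to pyruvate kinase, carried most of the RNA. GAPDH, ENO1 and PKM together made up 62.95% of the members' summed TPM under control and 63.35% in the other, and they were the members among the 100 most abundant genes of each library. The 38 genes summed to 6345 and 6534 TPM, or 0.634% and 0.653% of each library. Summed over the 9 genes of the later steps, counts were 453436 and 666119, a log2 ratio of 0.003, so the opposite differences within the group came to no net difference in counts.

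**Figure D3:**
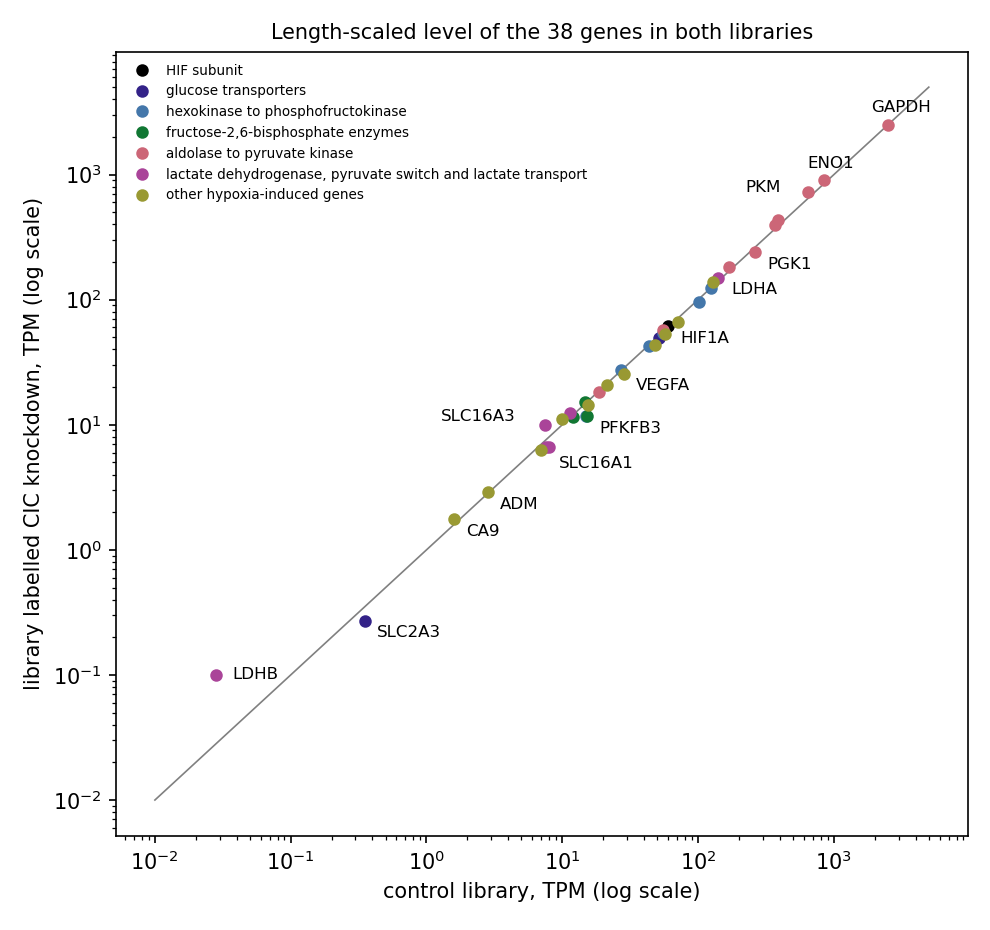
Level of each of the 38 genes in TPM in the control library (horizontal axis) and in the library labelled CIC knockdown (vertical axis), both on log scales, with the line of equal levels. The genes lie along the line from GAPDH at 2493 and 2512 TPM down to SLC2A3, with LDHB apart at 0.0281 and 0.0997 TPM.

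ALDOA, the main aldolase, had 57200 and 82514 counts and a ratio of 0.984 (0.973–0.994), but 389 and 431 TPM. A short transcript, variant 4 of 1612 bases, took 2.06% of its counts under control and 10.3% in the other, against 93.5% and 84.5% for variant 2 of 3279 bases. The direction for ALDOA therefore depended on the unit. ALDOC had 4085 and 6129 counts, 54.7 and 57.4 TPM, and overlapped 1 at 1.02 (0.983–1.06). TPI1, which interconverts the triose phosphates, had 28568 and 43192 counts, 370 and 392 TPM, and a ratio of 1.03 (1.02–1.05). GAPDH, the step that makes NADH, reached 147768 and 213103 counts and a ratio of 0.984 (0.977–0.99); in TPM its log2 difference was 0.01.

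PGK1, the first step that yields ATP (gene 5230, chromosome X, 78104248 to 78129295), was the later-step gene that stood lowest. It had 58042 and 76407 counts, 260 and 240 TPM, and a ratio of 0.898 (0.888–0.908), and it has 1 annotated transcript, so no division among transcripts enters its count. PGAM1 had 14161 and 21858 counts, 170 and 183 TPM, and a ratio of 1.05 (1.03–1.08). ENO1 had 72210 and 108566 counts, 853 and 899 TPM, and a ratio of 1.03 (1.02–1.03). Its neuronal relative ENO2 had 1981 and 2781 counts, 18.6 and 18.3 TPM, and a ratio of 0.958 (0.904–1.01). PGK1 and PGAM1, which act one after the other, thus stood on opposite sides of 1.

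PKM, pyruvate kinase (gene 5315, chromosome 15, 72199029 to 72231624), had 69421 counts under control and 111569 under the knockdown label, at 648 and 728 TPM. Its ratio of 1.1 (1.09–1.11) was the highest of the later steps. Alternative exons give the M2 form of proliferating cells and the M1 form of muscle. The M2 transcript (NM_002654) had 65833 of these counts, or 94.8%, under control and 105975 in the other. The 2 M1 transcripts (NM_182470 and NM_182471) had 2.85% and 3.02%. The division between the forms was close to the same in both libraries while the gene's total differed.

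At the lactate branch, LDHA, the subunit that favours lactate formation, had 13020 and 19744 counts, 141 and 150 TPM, and a ratio of 1.03 (1.01–1.06). LDHB, the subunit that favours pyruvate, was almost absent, with 2 and 11 counts and a ratio of 3.75 (0.819–34.8). At this depth no difference in LDHB could be detected, and LDHB made up 0.0199% and 0.0666% of the summed TPM of the pair.

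PDK1 and PDK3 inhibit pyruvate dehydrogenase and so keep pyruvate out of mitochondria. PDK1 (gene 5163, chromosome 2) had 1454 and 1782 counts, 7.92 and 6.58 TPM, and a ratio of 0.836 (0.78–0.896). PDK3 had 6209 and 9565 counts, 11.4 and 12.3 TPM, and a ratio of 1.05 (1.02–1.09). The 2 kinases thus differed in opposite directions, and the share of PDK1 in their summed TPM was 41.1% under control and 34.8% in the other.

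The lactate and proton transporters were split in the same way. SLC16A1, the transporter MCT1, had 1378 and 1711 counts, 7.59 and 6.59 TPM, and a ratio of 0.847 (0.788–0.91). SLC16A3, the hypoxia-induced lactate exporter MCT4 (gene 9123, chromosome 17, 82217951 to 82239499), had 719 and 1367 counts, 7.44 and 9.95 TPM, and a ratio of 1.3 (1.18–1.42). It was the highest of the 36 members. Its transcript variant 4 had 253 and 912 counts and variant 5 had 88 and 349, while the model X1, which begins furthest upstream, had 119 and 0. In the control library the pair had nearly equal levels, with SLC16A1 at 50.5% of the summed TPM, and in the other SLC16A3 had 60.1%.

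**Figure D4:**
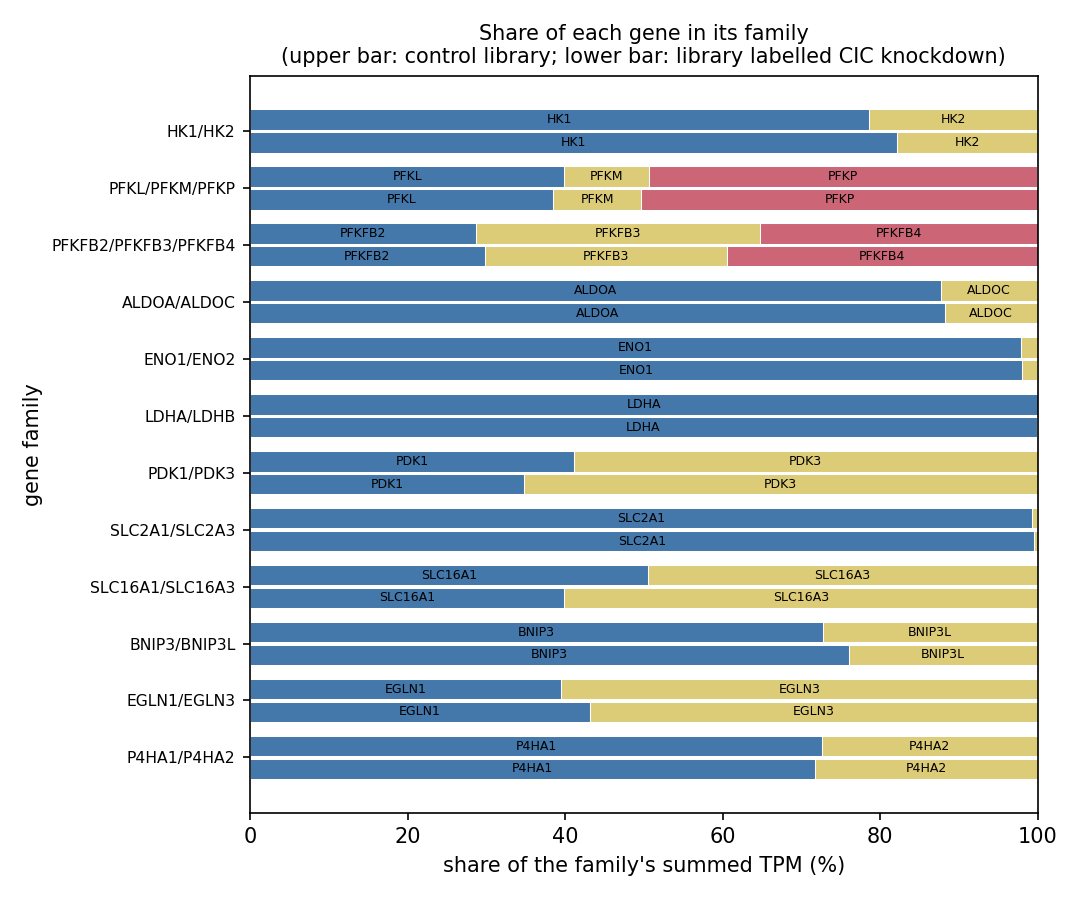
Share of each gene in the summed TPM of its family (horizontal axis, percent) for the 12 families in the member list; the upper bar of each pair is the control library and the lower bar the library labelled CIC knockdown. The lactate transporters show the largest shift, with SLC16A1 at 50.5% above and 39.9% below, and the leading gene differs between the bars for them and for the PFKFB family; in counts, which are not corrected for length, SLC16A1 and PFKFB2 lead in both libraries.

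The 11 other hypoxia-induced genes had 6 lower and 1 higher by interval, where 27.3% and 33.8% of all genes were, with 4 overlapping 1, and a median log2 ratio of -0.12. CA9, ADM and ANKRD37 had the fewest counts of the group, and each overlapped 1. CA9, the cell-surface carbonic anhydrase of hypoxic tumours, had 114 and 182 counts, 1.58 and 1.76 TPM, and a ratio of 1.09 (0.857–1.39). ADM, the vasodilator peptide adrenomedullin, had 196 and 287 counts, 2.82 and 2.89 TPM, and a ratio of 0.999 (0.83–1.2). ANKRD37, a direct HIF-1 target, had 262 and 334 counts, 7.01 and 6.31 TPM, and a ratio of 0.87 (0.737–1.03).

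BNIP3 and BNIP3L, mitochondrial proteins that start mitophagy, lay on opposite sides. BNIP3 had 9728 and 14847 counts, 129 and 137 TPM, and a ratio of 1.04 (1.02–1.07). BNIP3L, also called NIX (gene 665, chromosome 8), had 7739 and 9901 counts, 48.4 and 43.3 TPM, and a ratio of 0.873 (0.847–0.899). BNIP3 held 72.7% and 76.0% of their summed TPM.

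The oxygen sensors EGLN1 and EGLN3, themselves HIF targets, had 2914 and 4045 counts and 1914 and 2587 counts. Their ratios were 0.947 (0.903–0.993) for EGLN1 and 0.922 (0.869–0.979) for EGLN3, and with halved counts both intervals overlapped 1 (0.885–1.013 and 0.847–1.003). EGLN1 stood at 10.0 and 11.0 TPM, so its direction turned between the units: a model transcript of 3066 bases took 6.59% of its counts under control and 19.3% in the other, against 87.5% and 76.6% for that of 7097 bases. EGLN3 stood at 15.3 and 14.5 TPM.

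NDRG1, a growth-arrest gene induced by hypoxia (gene 10397, chromosome 8), had 11102 and 14610 counts, 70.9 and 66.2 TPM, and a ratio of 0.897 (0.876–0.92). P4HA1, the catalytic subunit of the collagen prolyl hydroxylase, had 7479 and 10028 counts, 56.6 and 53.0 TPM, and a ratio of 0.914 (0.887–0.942). Its relative P4HA2 had 2844 and 3979 counts, 21.4 and 20.9 TPM, and overlapped 1 at 0.954 (0.909–1.0). VEGFA, the main angiogenic growth factor (gene 7422, chromosome 6, 43770209 to 43786487), had 4523 and 5851 counts, 28.4 and 25.7 TPM, and a ratio of 0.882 (0.849–0.917). Among its 3 most counted transcripts, the shortest, variant 6, had 2139 and 2261 counts and a ratio of 0.721 (0.679–0.765). Variant 4 had 1153 and 1636 counts and overlapped 1, and the longest, variant 2, had 472 and 897 counts and a ratio of 1.3 (1.16–1.45). The 3 differ in the exons that bind heparan sulphate, which the shortest lacks.

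In bulk RNA, fewer cells that express a gene and less RNA of it per cell cannot be told apart. The gene counts rest on an estimated division of reads among 267 annotated transcripts. The share of a gene's counts that was assigned to other transcripts in the second library was 3.18% in the median member, and over 20% in 7: HK2 (88.5%), NDRG1 (49.0%), SLC16A3 (44.8%), PDK1 (39.7%), PFKM (31.2%), P4HA2 (26.6%) and PFKL (25.1%). NDRG1 is an example, where the model X1 had 7020 and 2080 counts and variant 1 had 1894 and 6719. Many of these transcripts share most of their exons, and the counting intervals leave out any error of that division. The part of that division in the results was not tested. The share moved was not computed over all genes, so no pattern is drawn from these 7.

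**Figure D5:**
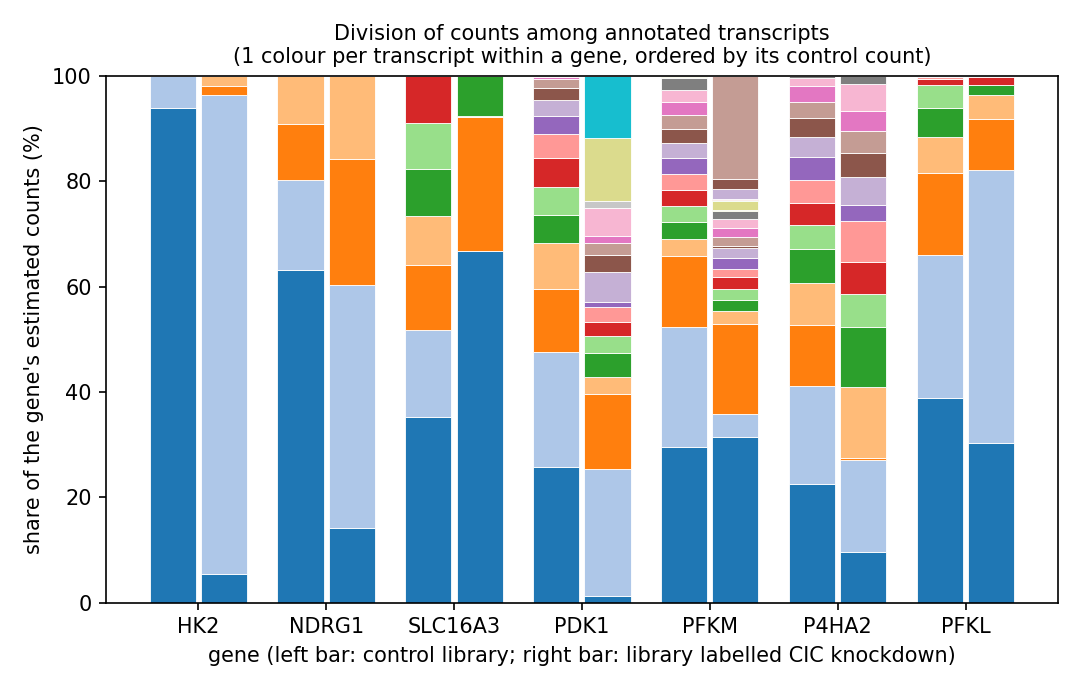
Share of a gene's estimated counts (vertical axis, percent) assigned to each annotated transcript, for the 7 members in which over 20% moved; the left bar of each pair is the control library and the right bar the library labelled CIC knockdown. HK2 shows the most complete exchange, with 93.9% of counts on 1 transcript at left and 5.4% on the same transcript at right.

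Lists of neighbouring pathways, in which the genes named are those with the largest absolute log2 ratio unless stated, had median log2 ratios from -0.135 to 0.137, against 0.02 for all genes. Their counts by interval stand beside 33.8% of all genes higher and 27.3% lower. Of 15 counted regulators of HIF, 6 were higher and 4 lower by interval, with a median log2 ratio of 0.06. ELOC, elongin C of the VHL ubiquitin ligase, had 1946 and 3969 counts and a log2 ratio of 0.48. EGLN2, the related prolyl hydroxylase, stood at 0.23, and SIAH1, a ubiquitin ligase for prolyl hydroxylases, at -0.31. Chosen after their values were seen, EPAS1, the HIF-2 alpha subunit, had 683 and 930 counts and overlapped 1, ARNT stood at 0.14, and HIF3A had 0 counts in both libraries.

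Among 36 counted genes of a second list of hypoxia-induced genes, 15 were lower and 11 higher by interval (27.3% and 33.8% of all genes), with 7 at least 20% lower, 5 at least 25% higher (9.58% and 12.4% of all genes) and a median of -0.06. Their direction was mixed. In TPM their median was 0.03, where the median of all genes was 0.06, against 0.02 in counts. BHLHE40, a transcriptional repressor, had 1505 and 1398 counts and a log2 ratio of -0.66. TMEM45A stood at -0.57 (330 and 324 counts). IGFBP3, an IGF-binding protein, had 1254 and 2793 counts and stood at 0.60. Chosen after their values were seen, DDIT4, an inhibitor of mTOR signalling, had 8748 and 9181 counts and stood at -0.48. ERO1A, an oxidase of the endoplasmic reticulum, had 9555 and 10160 counts and stood at -0.46. PLOD2, a collagen lysyl hydroxylase, stood on the other side at 0.34, with 7652 and 14164 counts. The difference between this list and the 38 genes was not tested.

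The pyruvate entry genes had 3 of 13 higher and 4 lower. PDK4, a kinase of the same family as PDK1, had 1452 and 1336 counts and a log2 ratio of -0.67, and the pyruvate carrier subunit MPC2 stood at -0.40, while the dehydrogenase subunit DLAT stood at 0.21. Of 8 genes of lactate and acid export, 5 stood higher and 3 lower (median 0.14). Carbonic anhydrase CA2 had 5641 and 12815 counts and a log2 ratio of 0.63, and the bicarbonate transporter SLC4A7 stood at 0.36 (4537 and 8522 counts). BSG and EMB, the chaperones of the lactate transporters, stood lower at -0.11 and -0.25, picked once their values had been seen.

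Further glucose transporters gave 2 of 6 higher and 0 lower, with SLC2A6 at 0.55 (613 and 1319 counts), SLC2A10 at 0.09 and SLC2A13 overlapping 1. Of 9 other glycolytic enzymes, 4 stood lower and 1 higher (median -0.135). PFKFB1 stood at -0.65 (145 and 135 counts), BPGM, which makes 2,3-bisphosphoglycerate, at -0.46 (715 and 760 counts), and phosphoglucomutase PGM1 at 0.21. The pentose phosphate list had 5 of 10 higher and 3 lower, with a median of 0.11. Transaldolase TALDO1 stood at 0.29 (3482 and 6249 counts), RBKS at -0.38 (117 and 131 counts) and RPE at -0.20.

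In the list of gluconeogenesis and glycogen, 5 of 11 were higher and 2 lower. Glycogen synthase GYS1 stood at 0.31 (1362 and 2477 counts), the glycogen-targeting subunit PPP1R3C at -0.50 (3541 and 3666 counts) and the mitochondrial enzyme PCK2 at -0.37 (2934 and 3326 counts). Among 11 glucose-sensing and growth regulators, 4 were higher and 5 lower. PRKAA1, a catalytic subunit of AMP kinase, had 6672 and 6030 counts and a log2 ratio of -0.70. TXNIP, which limits glucose uptake and is induced by glucose, had 25597 and 25634 counts and stood at -0.55. Its relative ARRDC4 had 6080 and 6153 counts and stood at -0.53.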

How the data were processed

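RNA from 2 samples, 1 per group, was analysed. Per the submitters' processing notes, Trimmomatic, HISAT2 and StringTie were used with the builds hg38 and GRCh38; versions and the parameters are not given in the sources used here. Estimated read counts, FPKM and TPM are given per gene and per transcript, per the file headers. The deposited estimated counts equal FPKM times transcript length times a constant, rounded up, in 99.2% and 98.9% of counted transcripts (tolerance 0.01), so they derive from coverage and were already whole numbers. The authors scaled FPKM to library depth and TPM to a fixed sum, and both are used as deposited. Columns marked KD were matched by title to the CIC knockdown sample and the others to the control, and 0 columns were left without a sample.

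Library sizes were scaled with TMM in edgeR 4.0.16 (R 4.3.3) over all 46732 genes, which gave factors of 0.995 and 1.005. Log2 ratios used a prior count of 2. Intervals are exact Clopper-Pearson 95% intervals conditional on the summed count, and they cover counting error only, since PCR copies are not separate molecules and cultures were not replicated. The calculation was run on simulated data with counting error alone. That run cannot show how the intervals hold where cultures vary or reads are divided among transcripts. With 1 library per group no test was possible and no p-value is given. Counts of members used genes with at least 100 counts in 1 library. TPM and FPKM differences are on the log2(value + 0.1) scale.

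All members were named; in other lists the 3 genes with the largest absolute log2 ratio, of which 1 is not reported here. Members and lists were chosen with earlier results of these data known. Alternatives were other scalings (DESeq2 1.42.0 size factors among them), units, count minimums, prior counts, halved counts (whether reads or fragments were counted is not stated) and the gene table that adds assembled transcripts.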

Additional observations from a re-analysis of the deposited data

Results flagged for a closer look

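An assembled splice variant of HIF1A, in a list of 4993 assembled variants that the comparisons above do not use, stood above its control level. It spans chromosome 14, 61695513 to 61748258, has 15 exons and is 3 bases longer than the annotated transcript with the same ends. It had 2463 counts under control and 4048 under the CIC knockdown label, a ratio of 1.13 (95% counting interval 1.08–1.19). That was 22.5% and 25.2% of the HIF1A counts in the table that includes assembled transcripts. Only variants of the members whose interval lay above 1 were flagged here, and larger differences below 1 stand under the other observations. The part of the estimated division of reads between this variant and the annotated transcript was not tested.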

How the results depend on the processing

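The members' median log2 ratio ranged from -0.056 to -0.01 over the alternatives, and 23 of the 27 members whose interval excluded 1 kept 1 sign over 8 settings of scaling, unit, table and prior count. The exceptions were GPI (-0.011 in TPM, -0.03 in FPKM), ALDOA (0.146 and 0.127), EGLN1 (0.139 and 0.12) and GAPDH (0.011 in TPM). These units divide by the length of the transcript to which counts were assigned. For GAPDH the mean transcript length, weighted by TPM, was 1280 bases in both libraries. The median log2 ratio of all genes was itself 0.057 in TPM and 0.038 in FPKM, against 0.023 in counts. Of 304 single values of members, 273 lay inside the original interval, 24 outside it, and 7 reversed. With halved counts 15 members were lower and 9 higher by interval, against 18 and 9. Members at least 20% lower numbered 2 in TPM and in FPKM, against 1 in counts, the second being HK2. List medians that moved by more than 0.045 were as follows, and the cause was not tested. In TPM they were 0.192 for lactate and acid export, 0.084 for pyruvate entry, 0.205 for gluconeogenesis and glycogen and 0.026 for the second hypoxia list; in FPKM the last pair were 0.186 and 0.008. With at least 1000 counts they were -0.011 for pyruvate entry and 0.084 for gluconeogenesis and glycogen. With no filter they were 0.32 for glucose transporters, 0.082 for glucose sensing and 0.106 for markers of other cells. The HIF regulators had -0.042 in the table with assembled transcripts. No paired analysis was possible because each group has 1 library and no replicate number. Depth limits SLC2A3, LDHB, CA9, ADM and ANKRD37, whose intervals are wide.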

Other observations

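Assembled splice variants were listed for 3 more of the 38 genes, and each had a lower normalised count in the library labelled CIC knockdown. That of ENO2, also 3 bases longer than the annotated transcript, had 419 and 211 counts, a ratio of 0.347 (0.293–0.41), and took 21.1% and 7.57% of the gene's counts. That of PFKL had 6799 and 6227 counts, a ratio of 0.631 (0.609–0.653), and took 48.4% and 32.6%. That of VEGFA, with 3 exons, had 726 and 663 counts and a ratio of 0.629 (0.565–0.7). The share of all 4993 assembled variants that stood lower was not computed, so no pattern is drawn from these 3. Their counts rest on an estimated division of reads among transcripts of the same gene, whose part was not tested.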
